A study of Mus musculus with 12 samples.

Results

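The 42 mouse genes described here are the protein-coding rows of the deposited count table whose description names a tRNA synthetase, out of 43322 genes in the table. All 42 passed the filter on low counts and were among the 17077 genes tested. By what the encoded proteins are known to do, 21 were enzymes of the cytosol and 17 were enzymes of mitochondria. A further 2 were scaffold proteins (Aimp1 and Aimp2), and 2 were proteins related to the editing domains of synthetases (Aarsd1 and Prorsd1). A symbol ending in 2 marked 19 genes. Of these, Tarsl2 was counted with the cytosolic enzymes and Aimp2 with the scaffold proteins. Gars and Kars encode the glycine and lysine enzymes of both compartments and were counted as cytosolic.

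Poly-A RNA was sequenced from cultured cortical glial cells of wild-type CD1 mice taken at postnatal days 3 to 5, labelled as primary astrocytes and grown with epidermal growth factor. Thapsigargin cultures received 3 µM of the drug for 60 min, calcium-free cultures were kept for 60 min in medium without calcium that held EGTA, and control cultures received vehicle, with 4 libraries in each of the 3 groups. The series text calls the libraries of a group biological replicates, and the labels describe the dissection of the cortices of 1 mouse, without saying which libraries came from the same animal. The series asked which calcium signalling genes change when the calcium pump SERCA is blocked or external calcium is removed.

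Aminoacyl-tRNA synthetases join each amino acid to its matching tRNA, the step that lets a ribosome read a codon as an amino acid. For most amino acids the cytosol and the mitochondrion use separate enzymes, all encoded in the nucleus, and several cytosolic enzymes are held in a multisynthetase complex by scaffold proteins. Blocking SERCA with thapsigargin empties the endoplasmic reticulum of calcium and is a classical trigger of the integrated stress response. In that response, phosphorylation of the initiation factor eIF2 favours translation of the transcription factor ATF4, which is known to bind C/EBP-ATF response elements and to raise genes of amino acid supply, among them many cytosolic synthetases.

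Total counts per library ran from 36191501 to 42569101, and a member's count in a library lay between 232 and 23020. Values are given as CPM (counts scaled to the normalised library size), and the values of a group are listed from replicate 1 to 4. Replicate 4 of each group stood apart. Its 3 libraries held 588 to 739.8 CPM of Xist, which coats the inactive X, whereas no other library exceeded 0.319 CPM. In all 3 groups, 21 of the 42 members were higher in replicate 4 than in replicates 1 to 3, 3 were lower (Lars2, Mars2 and Tarsl2), and 18 did not go the same way in every group. The share of all genes with such an order was not computed, so these counts do not set the members apart. The 12 astrocyte markers summed to 8249 to 9341 CPM with thapsigargin, 9525 to 10526 CPM in calcium-free medium and 9185 to 10272 CPM in control. The ranges over all libraries were 1467 to 1905 CPM for 8 oligodendrocyte lineage markers, 149 to 217 CPM for 8 neuron markers, 60.6 to 124 CPM for 8 microglia markers and 87.7 to 713 CPM for 8 vascular and fibroblast markers. No marker was at 0 in every library.

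The promoters were searched for the C/EBP-ATF response element, because Atf4 RNA rose with thapsigargin and the element is where ATF4 is known to act. The letters searched were TGATGNAAN on both strands, in the 250 bases before and 50 after the gene start in RefSeq (build GRCm38.p6), a window held for 32 of the 42 members. The letters were found in 5 of these 32 (15.6%), against 4.5% of the windows of 27025 genes. The 5 genes were Aars, Gars, Iars, Tars and Yars, which join alanine, glycine, isoleucine, threonine and tyrosine. All 5 were among the 8 windows held for a list of 13 cytosolic synthetases known as ATF4 targets. The element was in 0 of the 14 windows of mitochondrial enzymes, which says only that these letters are not in them. The 6 matches are shown with 25 bases on each side, on the strand of the gene and with the element in capitals, since these are the members in which the element was found. Matches of Asns, Chac1 and Trib3, which are ATF4 targets outside the family, follow for comparison.
Aars, chr8:111033704-111033762, plus strand: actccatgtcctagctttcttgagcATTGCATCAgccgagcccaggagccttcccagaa
Aars, second match, chr8:111033825-111033883, plus strand: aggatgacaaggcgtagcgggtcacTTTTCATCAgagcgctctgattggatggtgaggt
Gars, chr6:55037945-55038003, plus strand: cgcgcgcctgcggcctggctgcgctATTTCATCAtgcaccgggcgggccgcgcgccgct
Iars, chr13:49682111-49682169, plus strand: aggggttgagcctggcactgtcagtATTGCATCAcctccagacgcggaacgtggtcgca
Tars, chr15:11399641-11399699, minus strand: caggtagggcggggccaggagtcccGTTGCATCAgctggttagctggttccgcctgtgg
Yars, chr4:129189881-129189939, plus strand: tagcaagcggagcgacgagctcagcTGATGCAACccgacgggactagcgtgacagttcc
Asns, chr6:7693199-7693257, minus strand: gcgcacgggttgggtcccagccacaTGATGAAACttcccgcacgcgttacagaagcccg
Chac1, chr2:119351023-119351081, plus strand: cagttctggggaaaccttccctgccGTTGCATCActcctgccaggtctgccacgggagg
Trib3, chr2:152344014-152344072, minus strand: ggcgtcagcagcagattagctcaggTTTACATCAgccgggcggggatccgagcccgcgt
The element began 113 bases before the start and again 8 bases after it in Aars, 31 bases before it in Gars and 16 before it in Tars, and 6 bases after it in Iars and 3 after it in Yars. In Yars and Asns the letters read along the gene's own strand, and in the other windows shown they read on the opposite strand. For Aars and Yars the RefSeq start used is not the outermost start of the gene. The full cyclic AMP response element, TGACGTCA, was in 0 of the 32 windows (2.03% of all windows), and its part TGACG, which also lies inside the full element, was in 12 (23% of all windows). The ER stress element, CCAAT and CCACG with 9 bases between them, was in 0 of the 32 (0.137% of all windows).

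Cytosolic enzymes were the more abundant class at the RNA level. Per combined exon length (RPKM, CPM per kilobase), the median of the 21 cytosolic enzymes was 33.2 with thapsigargin, 35.9 in calcium-free medium and 36.2 in control. The median of the 17 mitochondrial enzymes was 7.36 with thapsigargin, 6.99 in calcium-free medium and 7.57 in control. In control, cytosolic levels ran from 9.42 RPKM for Farsb, a subunit of the phenylalanine enzyme, to 64.3 RPKM for Nars, which joins asparagine. Mitochondrial levels in control ran from 1.31 RPKM for Nars2 to 84.0 RPKM for Lars2.

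The enzymes of the 2 compartments that use the same amino acid were set side by side in 19 pairs. The cytosolic gene had the higher level per length in all 12 libraries in 17 pairs, and in 14 of these it was more than 2-fold higher in every library. For asparagine, the mean over the libraries of the ratio Nars to Nars2 was 52.3, with a range of 43.2 to 64.7. Ratios were much nearer to 1 for cysteine, with a mean of 1.30 for Cars to Cars2, and for valine, with a mean of 2.07 for Vars to Vars2. Isoleucine was the pair whose order changed between libraries, with a ratio of Iars to Iars2 from 0.748 to 1.01. Leucine was the pair in which the mitochondrial gene was higher in every library, with a ratio of Lars to Lars2 from 0.222 to 0.695. The deposited exon lengths of Nars2, Fars2 and Wars2 were 15898, 12531 and 8196 bases, which lowers their level per length if cells mostly use shorter transcripts.

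**Figure D1:**
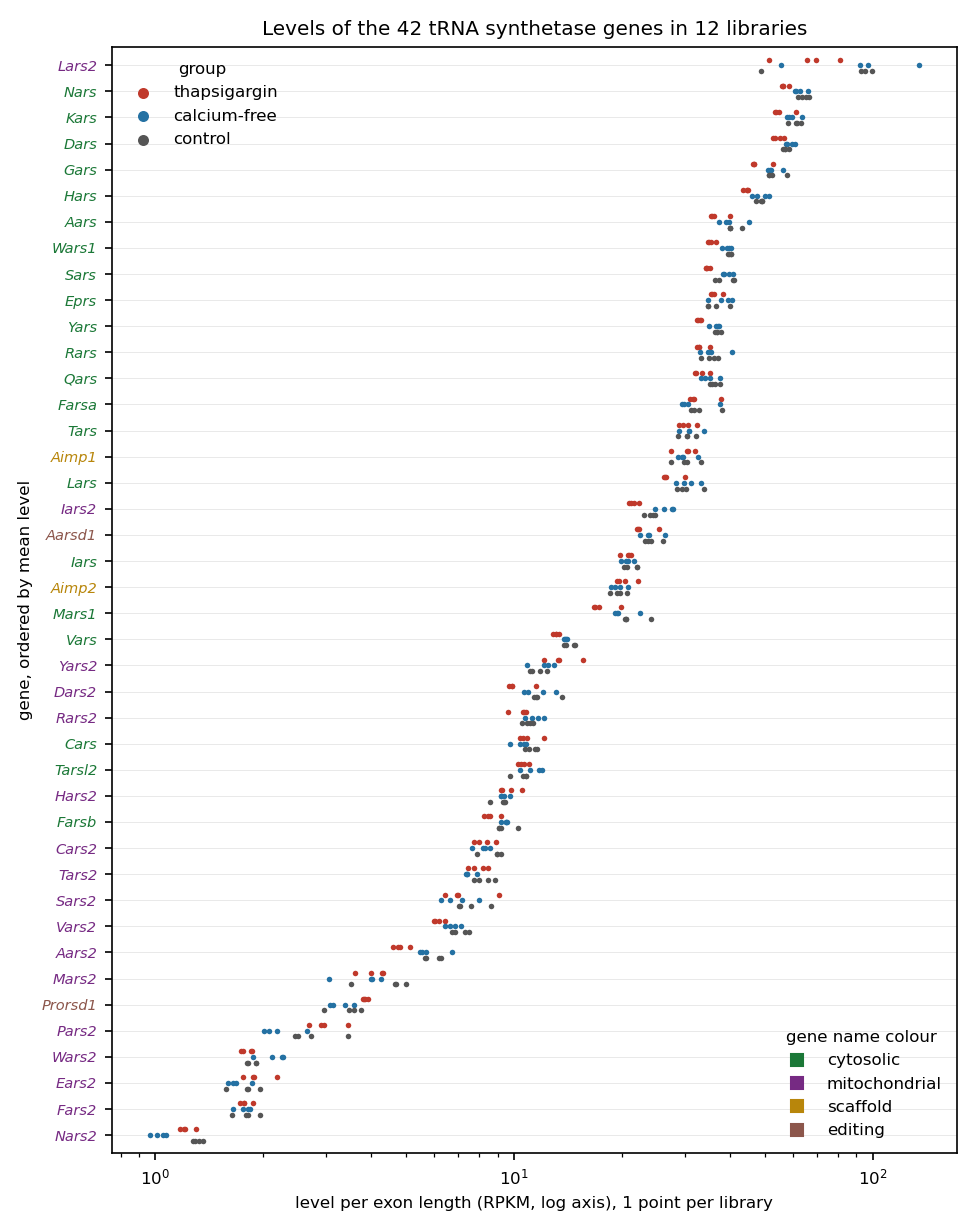
Level per combined exon length (RPKM, log axis) of each of the 42 genes, 1 point per library, with thapsigargin, calcium-free medium and control drawn from top to bottom within a gene and gene names coloured by class. Lars2, Nars, Kars, Dars, Gars and Hars have the highest means, Ears2, Fars2 and Nars2 the lowest, and the points of Lars2 spread far more widely than those of its neighbours.

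Lars2, which joins leucine in mitochondria, was the member with the highest mean level and the widest spread. It was at 358, 307, 289.7 and 228 CPM with thapsigargin, 428, 594, 409 and 246 CPM in calcium-free medium and 409.8, 439, 421 and 215 CPM in control. Replicate 4 was the lowest library of every group, and the groups overlapped. No difference in Lars2 passed the test (adjusted p from 0.184 to 0.867), and a log2 fold change of -0.33 ± 0.26 (SE) with thapsigargin against control was accordingly loose. In thapsigargin minus calcium-free, Lars2 was lower in 4 of 4 pairs and passed the test with the replicate block (-0.45, adjusted p = 0.0433) and without replicate 4 in any group (-0.55, adjusted p = 0.0318). The deposited counts of Lars2 were not whole in any library, and they moved with those of the noncoding RNA gene Gm15564 on another chromosome (ratio of counts from 7.58 to 10.2), a gene noticed after its values were seen. Lars2 also overlaps by 9446 bases with Gm46137 on its own chromosome. Lars2 values are therefore uncertain, and whether reads were divided between loci was not tested.

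Per exon length, Ears2, Fars2 and Nars2 had the lowest levels of all members, and their libraries are given here and below in CPM. Ears2, which joins glutamate, was at 13.7, 14.5, 14.6 and 17.0 CPM with thapsigargin, 12.4, 13.0, 12.8 and 14.4 CPM in calcium-free medium and 14.0, 12.2, 14.0 and 15.2 CPM in control. Fars2, which joins phenylalanine, was at 23.5, 22.2, 22.1 and 21.6 CPM with thapsigargin, 23.0, 20.6, 22.7 and 22.0 CPM in calcium-free medium and 22.8, 22.5, 24.6 and 20.5 CPM in control. The groups overlapped for both genes, and neither passed the test in any of the 3 comparisons (adjusted p from 0.129 to 0.769 for Ears2 and from 0.872 to 0.904 for Fars2). In thapsigargin minus calcium-free, Ears2 was higher in 4 of 4 pairs and passed the test with the replicate block (0.18, adjusted p = 0.0102) and without replicate 4 in any group (0.20, adjusted p = 0.0181). Of all genes, 22.4% were higher with the block and 21.7% without replicate 4, and the share with 4 of 4 pairs higher was not computed.

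With thapsigargin, 8 of the 21 cytosolic enzymes were lower than in control, and 0 were higher. The lower genes were those for tryptophan (Wars1), tyrosine (Yars), asparagine (Nars), serine (Sars), valine (Vars), histidine (Hars), glutamine (Qars) and methionine (Mars1). The changes were small, between a ratio of 0.826 for Mars1 and 0.915 for Qars. The summed level of the 21 genes was 2234 ± 79.3 CPM with thapsigargin and 2420 ± 84.7 CPM in control (SD, n = 4 each).

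Over all 42 members, 11 were lower and 1 was higher with thapsigargin, at an adjusted p under 0.05. Among all genes tested, 14.8% were lower and 16.4% were higher. Among the 10968 genes at least as abundant as the least abundant member, 21.1% were lower and 21.2% were higher. The members lower were 26.2% of the 42 and 38.1% of the cytosolic enzymes, and the single higher member was 2.38% of the 42. The median log2 fold change was -0.13 for cytosolic enzymes, -0.07 for mitochondrial enzymes and -0.05 for all genes tested. The 11 lower members were also those whose 4 thapsigargin libraries all lay below the 4 control libraries, which was so for 15.1% of all genes. Prorsd1 was the only member with the opposite order, all thapsigargin libraries above all control libraries, which was so for 16.7% of all genes.

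**Figure D2:**
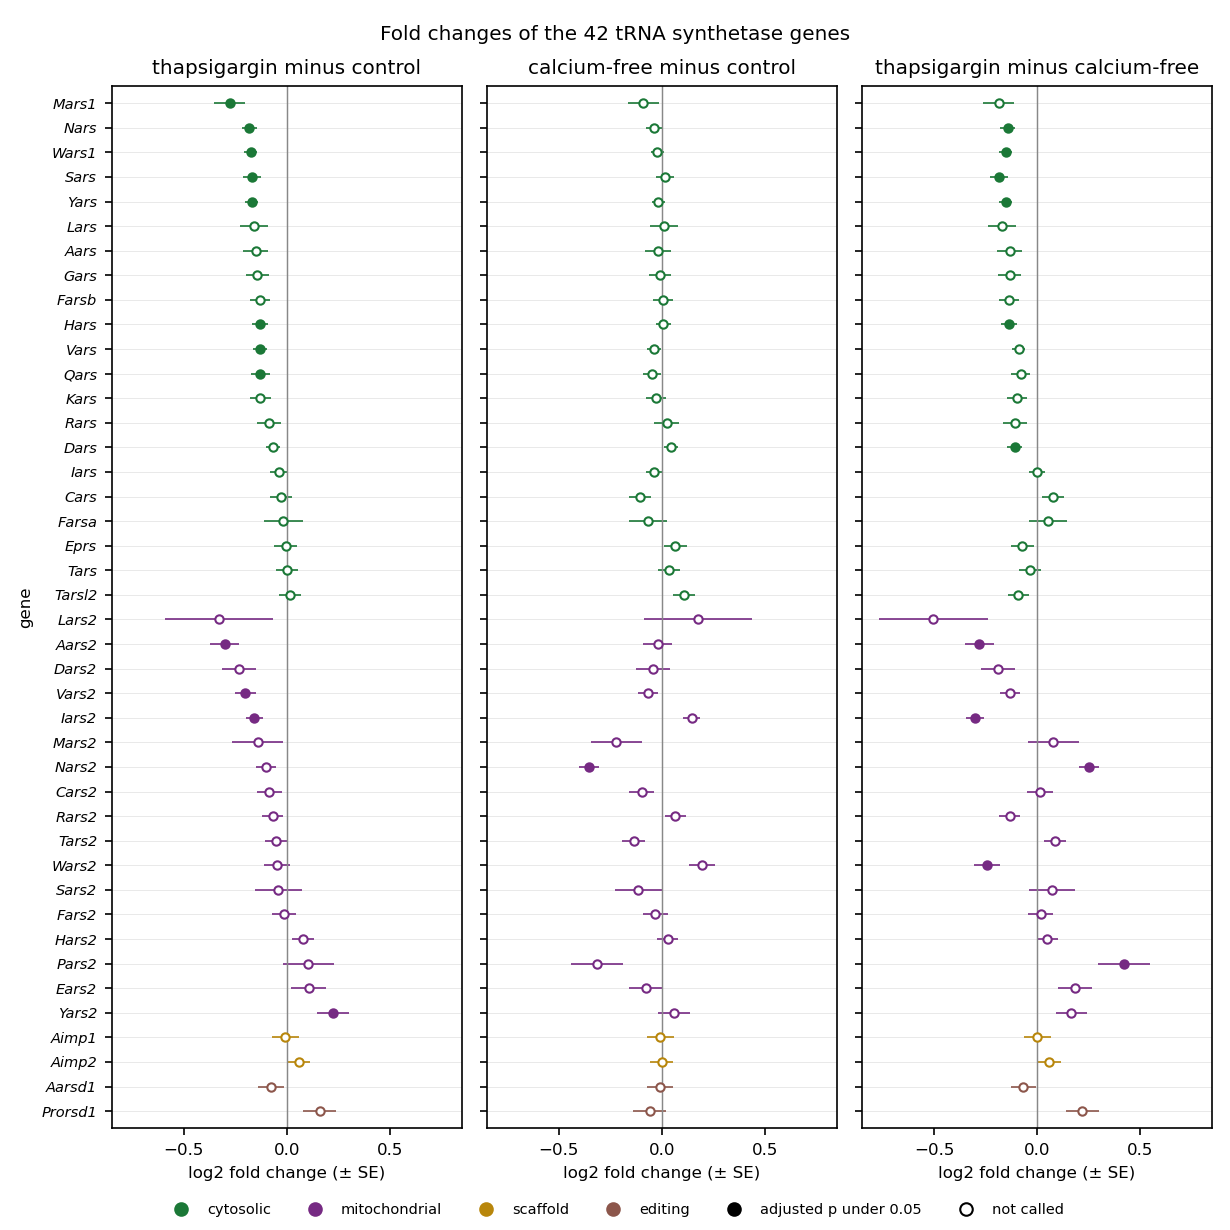
Log2 fold change ± SE (x axis) of each of the 42 genes in thapsigargin minus control, calcium-free minus control and thapsigargin minus calcium-free, with genes grouped by class and filled points for adjusted p under 0.05. In thapsigargin minus control, 19 of the 21 cytosolic points lie below 0, with 8 filled, while mitochondrial points spread from -0.33 to 0.23.

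The tryptophan, tyrosine and asparagine enzymes had the smallest adjusted p among the cytosolic decreases. Wars1 (chromosome 12, 108825956 to 108860095 in GRCm39) was at 101, 99.9, 102 and 105 CPM with thapsigargin, 109.8, 113, 116 and 114 CPM in calcium-free medium and 116, 115, 114 and 116 CPM in control. Yars (chromosome 4, 129083595 to 129113033) was at 82.6, 84.3, 84.9 and 83.2 CPM with thapsigargin, 89.4, 94.3, 95.3 and 93.3 CPM in calcium-free medium and 93.6, 93.8, 96.6 and 92.9 CPM in control. In both genes every thapsigargin library lay below every other library, while calcium-free and control libraries overlapped. The log2 fold changes with thapsigargin against control were -0.17 ± 0.03 for each (SE, adjusted p = 0.00107 for Wars1 and 0.00115 for Yars). Nars (chromosome 18, 64632726 to 64649586) was at 146, 147, 146 and 152 CPM with thapsigargin, 158, 159, 163 and 172 CPM in calcium-free medium and 173, 166, 161 and 169.9 CPM in control. Its thapsigargin libraries again lay below all others, with a log2 fold change of -0.18 ± 0.04 (adjusted p = 0.00261). The decreases of these 3 genes were called under all 22 alternatives tried.

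Sars, Vars and Hars also had thapsigargin libraries below all libraries of the other groups. Sars, the serine enzyme, was at 130.4, 127, 127 and 128 CPM with thapsigargin, 142, 141, 147 and 151 CPM in calcium-free medium and 135, 138, 151 and 152 CPM in control. Vars, the valine enzyme, was at 108, 109.6, 105 and 107 CPM with thapsigargin, 113, 114, 115 and 115 CPM in calcium-free medium and 115, 113, 121 and 122 CPM in control. Hars, the histidine enzyme, was at 86.7, 88.7, 88.8 and 89.5 CPM with thapsigargin, 91.6, 94.9, 99.8 and 102 CPM in calcium-free medium and 97.7, 94.2, 97.1 and 97.9 CPM in control. The gap to the nearest other library was narrowest in Hars. The log2 fold changes against control were -0.17 ± 0.04 for Sars, -0.13 ± 0.03 for Vars and -0.13 ± 0.04 for Hars (adjusted p = 0.00964, 0.0101 and 0.0202). The call of Hars was lost when replicate 1 of thapsigargin or of control was left out and when the trend with exon length was removed, with and without the replicate block. That of Vars was lost when replicate 4 was left out of all groups (adjusted p = 0.0664), and all 3 were lost with no filter on low counts.

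The methionine and glutamine enzymes were the other cytosolic genes lower with thapsigargin. Mars1 (chromosome 10, 127132090 to 127147655, minus strand) had a log2 fold change of -0.28 ± 0.07 (adjusted p = 0.0138), and Qars had -0.13 ± 0.05 (adjusted p = 0.0487). The call of Qars was lost with RLE factors and with no filter on low counts. It was also lost when replicate 1, 2 or 3 of thapsigargin or replicate 2 or 3 of calcium-free medium was left out. Leaving out any single control library ended it as well. Qars passed the test with the replicate block (adjusted p = 0.0018) and without replicate 4 in any group (adjusted p = 0.0137). Mars1 overlaps by 71 bases with Ddit3, which rose with thapsigargin. Since the strand setting of the counting is not given in the sources used here, Mars1 is uncertain. Next to these stood genes of like size that did not pass the test, among them Lars at -0.16 ± 0.07, Aars at -0.15 ± 0.06, Gars at -0.14 ± 0.05, Farsb at -0.13 ± 0.05 and Kars at -0.13 ± 0.05 (adjusted p from 0.0578 to 0.0942). These 5 passed it with the replicate number as a block (adjusted p from 0.000186 to 0.00379).

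Gars and Kars, whose products serve both compartments, were highest in replicate 4 of every group. Gars was at 112, 111, 112 and 126 CPM with thapsigargin, 122, 124, 124 and 135 CPM in calcium-free medium and 125, 123, 123 and 138 CPM in control. Kars was at 128, 126, 125 and 143 CPM with thapsigargin, 135, 137, 139 and 149 CPM in calcium-free medium and 143, 144, 136 and 148 CPM in control. In both genes the thapsigargin value of a replicate number was below the control value of that number in all 4 pairs. The share of all genes with this order was not computed.

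Other cytosolic enzymes stayed close to 0. Tars (threonine) was at 0.00 ± 0.05, Eprs (glutamate and proline) at -0.01 ± 0.06, Farsa at -0.02 ± 0.09, Tarsl2 at 0.02 ± 0.05, Cars (cysteine) at -0.03 ± 0.05 and Iars (isoleucine) at -0.04 ± 0.04 on the log2 scale (adjusted p from 0.523 to 0.99). Of the 10 multisynthetase complex genes among the members, 2 were lower with thapsigargin (Mars1 and Qars) and 0 were higher. Of the 13 cytosolic enzymes outside the complex, 6 were lower and 0 were higher. With the replicate block the lower genes were 4 of 10 in the complex and 9 of 13 outside it, where 28.2% of all genes tested were lower. The scaffold genes Aimp1 and Aimp2 were at -0.01 ± 0.07 and 0.06 ± 0.06 (adjusted p = 0.949 and 0.479). Eef1e1, the scaffold gene outside the member rule, was at -0.05 ± 0.08 (adjusted p = 0.696).

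Mitochondrial enzymes moved both ways with thapsigargin, with 3 of 17 lower and 1 higher. Among all genes tested 14.8% were lower and 16.4% higher, and among genes at least as abundant as the members 21.1% and 21.2%. The count of lower enzymes alone therefore does not set this class apart. Aars2, the alanine enzyme (chromosome 17, 45817473 to 45831769), was at 18.8, 19.7, 19.5 and 21.1 CPM with thapsigargin, 22.8, 22.5, 23.4 and 27.6 CPM in calcium-free medium and 23.2, 23.4, 25.4 and 25.8 CPM in control. Iars2, the isoleucine enzyme (chromosome 1, 185018839 to 185061615), was at 136, 138, 134 and 143 CPM with thapsigargin, 159, 168, 178 and 176 CPM in calcium-free medium and 154, 156, 158 and 148 CPM in control. Vars2, the valine enzyme, was at 27.1, 28.9, 27.8 and 26.9 CPM with thapsigargin, 29.8, 28.8, 30.7 and 31.9 CPM in calcium-free medium and 32.8, 30.6, 33.5 and 30.1 CPM in control. All 3 had thapsigargin libraries entirely below control, and Iars2 alone of the 3 also had calcium-free libraries entirely above control. Log2 fold changes against control were -0.30 ± 0.07 for Aars2, -0.16 ± 0.04 for Iars2 and -0.20 ± 0.05 for Vars2 (adjusted p = 0.0056, 0.0135 and 0.00766). The calls of Iars2 and Vars2 were lost with no filter on low counts (adjusted p = 0.0811 and 0.05). Iars2 overlaps with Rab3gap2, so its counts are uncertain without the strand setting, and overlaps with other genes likewise touch Aars, Hars, Hars2, Rars2, Farsb, Fars2, Ears2, Tarsl2, Aimp1 and Aimp2.

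Yars2, the mitochondrial tyrosine enzyme, was the only member higher with thapsigargin, at 0.23 ± 0.08 on the log2 scale (adjusted p = 0.043). Its libraries overlapped with control, although the thapsigargin value exceeded the control value of the same number in all 4 pairs. How many of all genes did so was not computed. The count of higher members was 0 when replicate 1, 3 or 4 of thapsigargin, replicate 2 or 3 of calcium-free medium or replicate 1, 2 or 4 of control was left out. The tyrosine pair was thus the pair with calls in opposite directions, Yars2 higher and Yars lower. Prorsd1, with libraries entirely above control, did not pass the test (0.16 ± 0.08, adjusted p = 0.157). Without Lars2, the 16 other mitochondrial enzymes summed to 479.6 ± 18.3 CPM with thapsigargin and 512 ± 8.31 CPM in control (SD, n = 4 each).

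**Figure D3:**
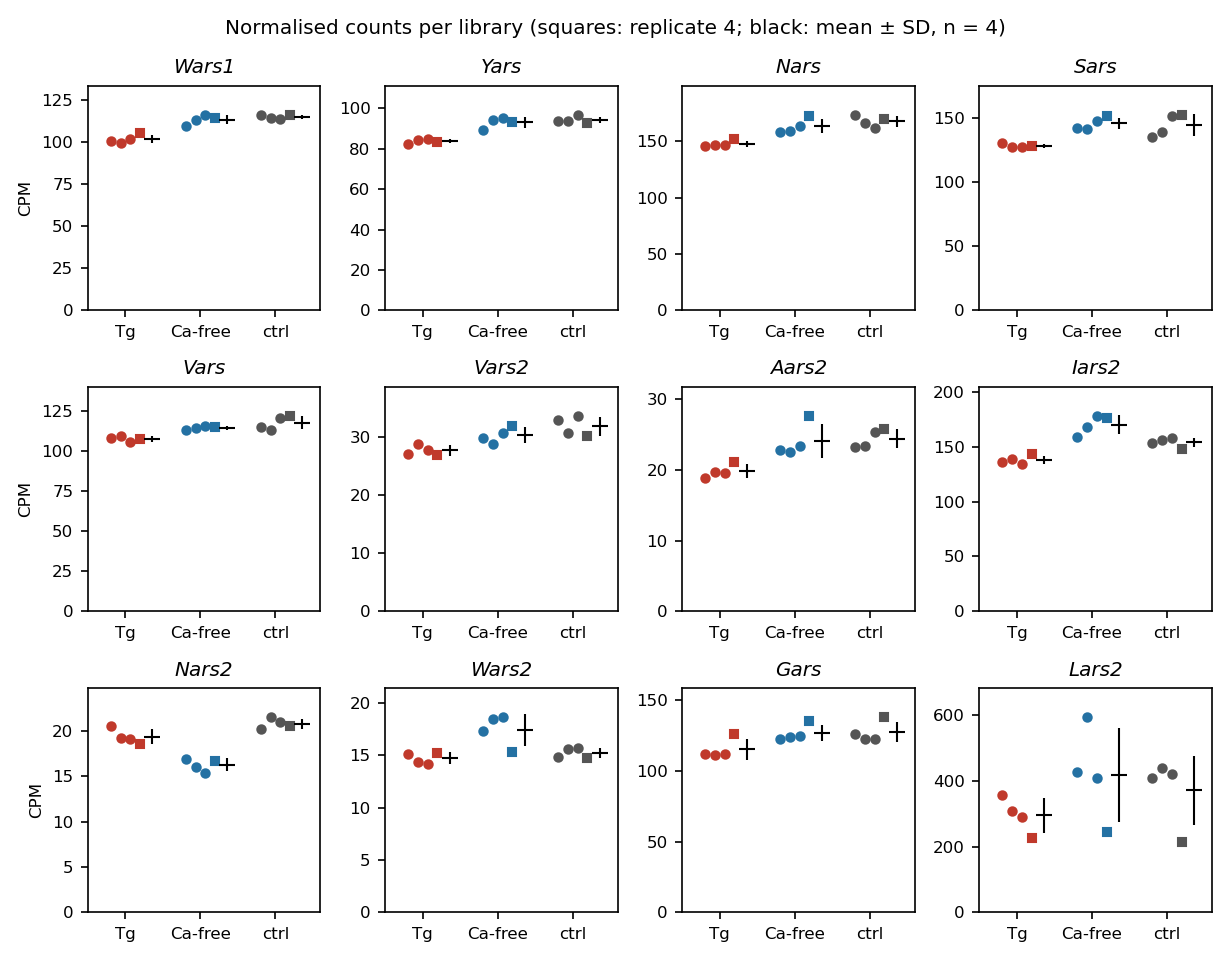
Normalised counts (CPM) of 12 members in each library of thapsigargin (Tg), calcium-free medium (Ca-free) and control (ctrl), with replicate 4 as squares and the mean ± SD (n = 4) in black. Thapsigargin libraries lie below control in Wars1, Yars, Nars, Sars, Vars, Vars2, Aars2 and Iars2, calcium-free libraries lie lowest in Nars2, and replicate 4 is low in Lars2.

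The number of members lower with thapsigargin depended on how the replicates were handled. It was 17 with the replicate block, 13 of them cytosolic (28.2% of all genes lower), 17 without replicate 4 in any group (21.2%), 17 without replicate 4 of thapsigargin alone (15.5%), 18 with upper quartile factors (19%) and 5 with no filter on low counts (5.01%). Members higher were 1 with the block (23.0% of all genes) and 2 without replicate 4 in any group (24.4%). Of 12 astrocyte markers 11 lay below 0 with thapsigargin, with 3 lower (25%) and 1 higher (9 and 1 with the block), a median log2 fold change of -0.20 and summed levels given above. Among all genes tested 14.8% were lower and 16.4% higher (28.2% and 23.0% with the block). Among genes at least as abundant as the members 21.1% were lower, so the count of 3 alone does not set these markers apart. Of 8 microglia markers 2 were lower (25%, and 8 with the block), at a summed 60.6 to 88.9 CPM with thapsigargin and 77.3 to 124 CPM in control. Neuron markers summed to 149 to 177 CPM with thapsigargin and 182 to 211 CPM in control, with Stmn2 lower at -0.34 ± 0.04 (118 ± 5.12 CPM with thapsigargin and 149.8 ± 5.12 CPM in control), Gad1 higher at 0.29 ± 0.08 and no call in the other 4 markers tested. The oligodendrocyte lineage marker Olig2 was higher at 0.40 ± 0.05, with no call in the other 5 tested. Of 7 vascular and fibroblast markers tested, 0 were lower and 0 higher (1 lower with the block), with a median of -0.12. The part of these markers in the result was not tested. In these bulk samples, fewer cells of a type and less RNA per cell cannot be told apart.

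The gene of ATF4 itself rose with thapsigargin, while none of its listed synthetase targets did. Atf4 was at 279.5 ± 15.8 CPM with thapsigargin and 66.2 ± 2.38 CPM in control (SD, n = 4 each), a log2 fold change of 2.08 ± 0.06 (SE, adjusted p = 1.68e-09). Of the 13 cytosolic synthetases on the list of known ATF4 targets, 0 were higher with thapsigargin and 6 were lower (46.2%, where 14.8% of all genes tested and 21.1% of genes at least as abundant as the members were lower), with a median of -0.15. The 8 other cytosolic enzymes had 0 higher and 2 lower (25%), with a median of -0.11. The count of higher genes on the ATF4 list was 0 under every alternative tried, and the count of lower ones ran from 4 to 9. Synthetase genes whose window held the element were at -0.15 (Aars), -0.14 (Gars), -0.04 (Iars), 0.00 (Tars) and -0.17 (Yars) on the log2 scale, of which only Yars passed the test.

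Among Atf4 and 28 of its other known targets, 7 of the 29 genes were higher with thapsigargin and 8 were lower, with a median of -0.07. These shares, 24.1% and 27.6%, were near the 21.2% higher and 21.1% lower among genes at least as abundant as the members, so the counts alone do not set the list apart. Besides Atf4, the higher genes were Ddit3, which encodes the stress factor CHOP, at 1.32 ± 0.11, Ppp1r15a, which directs dephosphorylation of eIF2alpha, at 1.19 ± 0.07, Chac1, a glutathione-degrading enzyme, at 0.45 ± 0.12, the transcription factor genes Cebpg and Cebpb at 0.44 ± 0.05 and 0.37 ± 0.07, and the stress regulator gene Sesn2 at 0.30 ± 0.07. The lower genes included Pycr1 of proline synthesis at -0.43 ± 0.09, Psat1 and Psph of serine synthesis at -0.35 ± 0.04 and -0.27 ± 0.04, and Mthfd2 of the mitochondrial folate pathway at -0.22 ± 0.05. The others were Vldlr, Atf5, Eif4ebp1 and Aldh18a1, between -0.32 and -0.14. Asns, which makes asparagine and whose window is shown above, was at -0.19 ± 0.11 without passing the test (adjusted p = 0.203), and Trib3 was at 0.13 ± 0.16 (adjusted p = 0.57). Of the 26 listed genes with a promoter window, 7 held the element (26.9%), so that it was present in genes that rose (Chac1), fell (Pycr1, Vldlr) and did not pass the test (Asns, Trib3, Nupr1, Slc7a11).

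**Figure D4:**
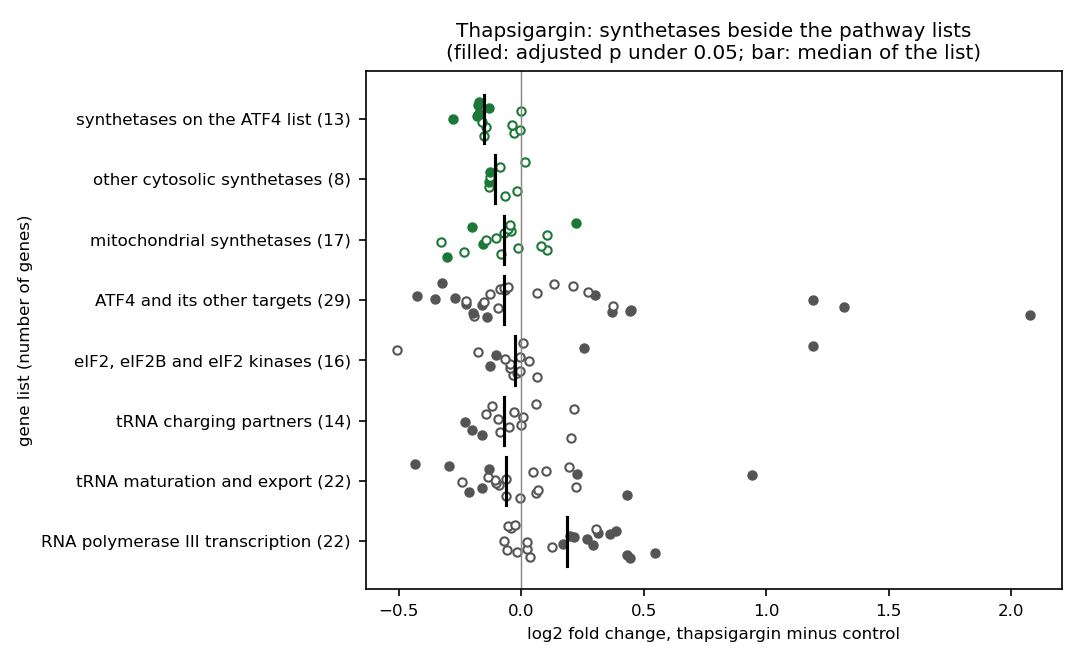
Log2 fold change, thapsigargin minus control, of each gene of 8 lists (filled: adjusted p under 0.05; bar: median of the list). The synthetase lists sit slightly below 0 with no point above 0.23, the list of Atf4 and its other targets reaches 2.08, and the list of RNA polymerase III transcription is centred on 0.19.

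Part of the genes that make tRNA rose with thapsigargin. RNA polymerase III and its factors, which transcribe tRNA genes, had 11 of 22 genes higher (50%) and 0 lower, with a median of 0.19. Among all genes tested 16.4% were higher and 14.8% lower, and among genes at least as abundant as the members 21.2% and 21.1%. The higher polymerase III genes included the subunit gene Polr3d at 0.36 ± 0.05 (25.4 ± 1.16 CPM with thapsigargin and 19.8 ± 0.645 CPM in control), and Bdp1, a subunit of the initiation factor TFIIIB, at 0.44 ± 0.07. Maturation and export genes had 3 of 22 higher (13.6%) and 5 lower (22.7%), with a median of -0.06, so these counts alone do not set the list apart. The highest was Trmt10c, a subunit of mitochondrial RNase P, at 0.94 ± 0.08 (27.6 ± 1.39 CPM with thapsigargin and 14.3 ± 0.667 CPM in control), while Hsd17b10, which encodes another subunit of the same enzyme, was at -0.21 ± 0.04. Trnt1, which adds the CCA end to which amino acids are joined, was higher at 0.23 ± 0.05, and Xpot, which exports tRNA from the nucleus, was lower at -0.29 ± 0.05.

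Partners of charging had 0 of 14 genes higher and 3 lower (21.4%) with thapsigargin, with a median of -0.07. The share lower was near the 21.1% of genes at least as abundant as the members. The lower genes were Eef1a1, which carries charged tRNA to the ribosome, at -0.20 ± 0.06, Gatb, a subunit of the mitochondrial glutaminyl-tRNA amidotransferase, at -0.23 ± 0.07, and Dtd1, a deacylase that clears D-amino acids from tRNA, at -0.16 ± 0.05. With the replicate block, 5 were lower (35.7%) and 1 was higher (7.14%), where 28.2% and 23.0% of all genes tested were. The list of eIF2, its exchange factor, its kinases and their regulators had 2 of 16 genes higher and 2 lower (12.5% each), with a median of -0.02. Among all genes tested, 16.4% were higher and 14.8% lower. The higher genes were Ppp1r15a, also counted with the ATF4 targets above, and Impact, both regulators rather than eIF2, exchange factor or kinase genes. The lower genes were Eif2s2 and Eif2b2 (4 lower with the block, 25%). Eif2ak4, which encodes GCN2, the kinase that senses uncharged tRNA, was at 24.6 ± 2.09 CPM with thapsigargin and 24.7 ± 2.26 CPM in control (adjusted p = 0.968). Eif2ak3, which encodes PERK, the kinase of the endoplasmic reticulum, was at 42.2 ± 1.76 CPM with thapsigargin and 42.7 ± 1.99 CPM in control (adjusted p = 0.835).

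In calcium-free medium, 1 of the 42 members was lower than in control and 0 were higher, where 1.55% of all genes tested were lower and 3.78% were higher. The lower gene was Nars2, the mitochondrial asparagine enzyme (chromosome 7, 96600698 to 96725606). It was at 20.6, 19.3, 19.1 and 18.6 CPM with thapsigargin, 17.0, 16.1, 15.4 and 16.7 CPM in calcium-free medium and 20.2, 21.5, 21.0 and 20.5 CPM in control. The calcium-free libraries lay below every library of the other groups, an order against control that 4.44% of all genes shared, and the log2 fold change against control was -0.35 ± 0.05 (SE, adjusted p = 0.00171). The call held under every alternative tried, with adjusted p from 2.67e-06 to 0.012. At an unadjusted p under 0.05, 3 members were lower and 2 were higher in the edgeR test. The share of all genes at that unadjusted threshold was not computed. DESeq2 called 1 member lower and 2 higher, where it called 2.36% of all genes lower and 6.35% higher. The medians were -0.02 for cytosolic enzymes, -0.04 for mitochondrial enzymes and -0.01 for all genes tested.

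No cytosolic enzyme passed the test in calcium-free medium (adjusted p of 0.323 or above), and their summed level was 2409 ± 107 CPM in calcium-free medium and 2420 ± 84.7 CPM in control (SD, n = 4 each). Mitochondrial enzymes outside the call lay between -0.32 ± 0.13 for Pars2, the proline enzyme (adjusted p = 0.209), and 0.19 ± 0.06 for Wars2, the tryptophan enzyme (adjusted p = 0.108). Iars2 was at 0.14 ± 0.04 (adjusted p = 0.0729) and was the only member with calcium-free libraries entirely above control, as 6.05% of all genes were. With the replicate block 5 members were lower and 2 higher (7.01% and 10.4% of all genes), and without replicate 4 in any group 3 were lower and 3 higher (5.16% and 10.5%). With the block the lower genes were Nars2, Pars2, Mars2, Tars2 and Mars1, and the higher were Iars2 and Wars2. Without replicate 1 or replicate 4 of calcium-free medium, 1 member was higher. RNA of Atf4 also rose in calcium-free medium, at 130.7 ± 8.76 CPM against 66.2 ± 2.38 CPM in control (log2 fold change 0.98 ± 0.06), and of the 13 synthetases on the ATF4 list 0 were higher and 0 lower (1 lower with the block). In the same comparison, 4 of the 29 genes of Atf4 and its other targets and 3 of the 22 RNA polymerase III genes were higher, and 0 of either were lower (with the block 8 and 2 for the first list and 5 and 1 for the other).

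Set directly against calcium-free medium, thapsigargin gave 9 lower and 2 higher members, where 13.2% of all genes tested were lower and 14.6% were higher. Shares among genes at least as abundant as the members are not given for this comparison. Against control they were larger than those of all genes. Both treatments share their controls, so the direct comparison is the test of the difference between them. Cytosolic enzymes had 6 of 21 lower (Yars, Wars1, Sars, Nars, Hars and Dars) and 0 higher, with a median of -0.11. Mitochondrial enzymes had 3 of 17 lower (Iars2, Aars2 and Wars2) and 2 higher (Nars2 and Pars2), with a median of 0.02, against -0.02 for all genes tested. The 9 lower members and Vars had thapsigargin libraries entirely below calcium-free libraries, as 13.4% of all genes did.

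The smallest p was that of Iars2, whose libraries are listed above, at -0.30 ± 0.04 (adjusted p = 0.000292). Wars2, the mitochondrial tryptophan enzyme, was at 15.2, 14.4, 14.2 and 15.2 CPM with thapsigargin, 17.3, 18.4, 18.6 and 15.3 CPM in calcium-free medium and 14.9, 15.6, 15.7 and 14.7 CPM in control. Its calcium-free value in replicate 4 lay within the range of control, while the other calcium-free libraries lay above all libraries of both other groups (thapsigargin minus calcium-free -0.24 ± 0.06, adjusted p = 0.0131). Dars, the aspartate enzyme, was at 142, 133, 134 and 139 CPM with thapsigargin, 144, 149.7, 153 and 144 CPM in calcium-free medium and 143, 147, 141 and 143 CPM in control. The margin of Dars was narrow (-0.11 ± 0.03, adjusted p = 0.0345), and the call was lost when replicate 2 or 3 of thapsigargin, replicate 2 or 3 of calcium-free medium or replicate 1 of control was left out. Of the other cytosolic calls, Yars, Wars1, Sars and Nars ranged from -0.14 to -0.18 (adjusted p from 0.00313 to 0.0127) and Hars was at -0.14 ± 0.04 (adjusted p = 0.0175). The call of Hars was lost without replicate 3 or 4 of calcium-free medium and without replicate 4 in any group. The calls of Hars, Dars and Nars were also lost with no filter on low counts and with only these 2 groups fitted.

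Nars2 was higher with thapsigargin than in calcium-free medium by 0.25 ± 0.05 (adjusted p = 0.00246), and Pars2 by 0.42 ± 0.13 (adjusted p = 0.0265). In both genes all thapsigargin libraries lay above all calcium-free libraries, as they did for 14.9% of all genes. Neither gene passed the test between thapsigargin and control (adjusted p = 0.136 for Nars2 and 0.582 for Pars2). With the replicate block 22 members were lower and 6 higher (26.9% and 22.4% of all genes), without replicate 4 in any group 16 and 5 (19.4% and 21.7%), and with the trend with exon length removed 15 and 4 (13.5% and 13.8%). Without replicate 4 of thapsigargin 15 were lower. The count of 2 higher was 1 without replicate 3 or 4 of thapsigargin or without replicate 1, 2 or 3 of calcium-free medium.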

How the data were processed

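Groups and replicate numbers came from the sample titles. Per the labels' protocols, stranded poly-A libraries were made from 500 ng of RNA with 14 PCR cycles. The submitters' processing notes name STAR 2.7.2b as aligner, featureCounts 1.6.4 as counter, cutadapt 1.17 and bcl2fastq 2.20.0.422, with the build GRCm39. No strand setting or annotation release is given in the sources used here. The values deposited by the authors are unscaled estimated counts for each gene, of which 14.2% to 15.9% per library were not whole, and they were rounded to whole numbers here. Genes were filtered by group at a minimum count of 10, scaled by TMM and tested with edgeR 4.0.16 (quasi-likelihood, robust, R 4.3.3) over all 12 libraries with 1 mean per group. Within each of 3 comparisons, p-values over all 17077 genes had a Benjamini-Hochberg adjustment, with calls made under 0.05. Precision is that of read counts, since no molecular identifiers are described, and p-values measure the spread between these libraries.

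The members, classes and lists were chosen with earlier results of these data known. Values in every library are given for the 8 called members with the smallest p in each comparison, the 6 members with the highest and the 3 with the lowest level per length; other members are named with fold changes. Deviations of libraries with the same replicate number correlated across genes with r from 0.159 to 0.836, every pair above 0.1, and by that rule the numbers were taken to pair the libraries. Only replicate 4 stood out (0.814 to 0.836), since among replicates 1 to 3 same numbers gave 0.159 to 0.392 and different numbers 0.238 to 0.412. Different numbers among replicates 1 to 3 thus also passed the rule, which cannot show that these libraries are matched by number. A fit with the number as block was an alternative. Alternatives were RLE and upper quartile factors, no filter, DESeq2 1.42.0, limma-voom 3.58.1, 2 groups only, the replicate block, removal of the trend with exon length, and libraries left out. The edgeR script was tested on simulated data.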

Additional observations from a re-analysis of the deposited data

Results flagged for a closer look

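In groups of 4 libraries, a library far from the other 3 was looked for in the 17 genes whose values are given in full. Of 51 groups 3 held one, where chance alone gives about 1 in 20. Gars was at 126.2 CPM in replicate 4 with thapsigargin, against 110.9 to 112 CPM in the other libraries of that group. Gars was likewise at 134.8 CPM in replicate 4 of calcium-free medium, against 122 to 124 CPM in the others. Lars2 was at 215.3 CPM in replicate 4 of control, against 409.8 to 439 CPM in the others. All 3 libraries were replicate 4, which stood apart in every group, and its part in these values was not tested.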

How the results depend on the processing

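Among the 17 genes whose values are given in full, no call changed direction. Calls of the other members were not followed gene by gene under every alternative. The medians of cytosolic enzymes in calcium-free medium against control and of mitochondrial enzymes in thapsigargin against calcium-free medium lay near 0 and changed sign with single libraries left out. Members lower with thapsigargin against control were 11, and 18 with upper quartile factors, 5 without a filter, 17 with the replicate block, 18 with the block and the exon length trend removed, and 17 without replicate 4 in any group. Members higher were 1, and 2 with the length trend removed, 4 with both and 2 without replicate 4. The cytosolic median of -0.13 was -0.11 with RLE factors and with DESeq2, -0.16 with upper quartile factors, -0.094 without a filter, -0.089 without replicate 4, and -0.10 with the length trend removed, with or without the block. In calcium-free medium against control, members higher were 0, and 1 with RLE factors (4.61% of all genes) and 2 with DESeq2 (6.35%). They were 2 with the block (10.4%), 2 with the block and the length trend removed (9.99%) and 3 without replicate 4 (10.5%). Members lower were 1, and 5 with the block, 5 with the block and the length trend removed and 3 without replicate 4. For thapsigargin against calcium-free medium, 9 lower became 5 without a filter, 22 with the block, 15 with the length trend removed, 24 with both and 16 without replicate 4, and 2 higher became 6 with the block, 4 with the trend removed, 7 with both and 5 without replicate 4. The cause was not tested. Leaving out the filter adjusts over more genes, but the unadjusted counts moved too. At an unadjusted p under 0.05 in thapsigargin against control, 17 members were lower with the filter and 11 without it. Those higher were 1 with the filter and 3 without it. The share of all genes at this unadjusted threshold was not computed, so these counts describe the members only.

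With each library left out in turn, thapsigargin against control gave 9 to 17 lower and 0 to 1 higher, with medians of -0.16 to -0.10 for cytosolic and -0.09 to -0.05 for mitochondrial enzymes. Calcium-free medium against control gave 1 lower and 0 to 1 higher, with medians of -0.04 to 0.01 and -0.10 to -0.029. Thapsigargin against calcium-free medium gave 7 to 15 lower and 1 to 3 higher, with medians of -0.15 to -0.089 and -0.02 to 0.04. In thapsigargin against calcium-free medium, Nars, Hars and Dars were lost without a filter and with only the 2 groups fitted, and Yars was lost without a filter. With genes classed by a symbol ending in 2, the medians with thapsigargin against control were -0.13 for cytosolic and -0.05 for mitochondrial enzymes.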

Other observations

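The 3 RNA polymerase III genes higher in calcium-free medium than in control were Crcp, Polr3b and Bdp1, at 0.44 ± 0.08, 0.33 ± 0.07 and 0.31 ± 0.07 on the log2 scale (SE). With thapsigargin against the same controls they were at 0.55 ± 0.08, 0.22 ± 0.07 and 0.44 ± 0.07. Thapsigargin against calcium-free medium gave 8 of the 22 genes higher (36.4%, where 14.6% of all genes were) and 0 lower. Among the higher were Brf2 at 0.33 ± 0.09 and Polr3f at 0.29 ± 0.07. The maturation genes Trmt10c and Clp1 were called in calcium-free medium against control, at 0.32 ± 0.08 and -0.42 ± 0.09.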
